A study of Homo sapiens with 6 samples.

Results

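The sites described here are the GUIDE-seq off-target sites that lie outside protein-coding genes. GUIDE-seq marks breaks made by a nuclease in living cells by capturing a short double-stranded DNA tag in the break. The libraries came from HEK293 cells, a human embryonic kidney line, that stably express the Cas9 nuclease and were nucleofected with a crRNA XT and tracrRNA guide complex and the tag. The groups are 6 guides aimed at PKLR, the pyruvate kinase gene of liver and red cells: SG1, SG2, SG3, SG4, SG7 and SG8. All groups share the same Cas9-expressing line and the tag, each has 1 library, and no untreated or tag-only library was analysed here. A site was counted as outside when its position on chromosomes 1 to 22 or X fell between the start and end of no protein-coding gene of the RefSeq table for GRCh38 (hg38). Of 1626 listed sites in all, 1618 were off-target sites on these chromosomes, and 773 of them were outside, against 845 inside.

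Most of the human genome sequence codes for no protein. Part of it is transcribed into long non-coding RNAs, and part holds pseudogenes, which are copies of genes that no longer encode a working protein. Cas9 cuts where the guide pairs with DNA beside a PAM, a short motif written NGG for the common enzyme, whether or not a gene lies there. A break between genes can still touch a promoter, which lies just before a gene's start, or a distant regulatory element.

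The lists hold positions and counts but no sequences, and the guide sequences were not used here. For outside sites that fell in a RefSeq start window (250 bases before to 50 after a gene's start), the letters around the break could be read. The PKLR window holds the PKLR position of every guide. The 20 bases and NGG whose expected cut, 3 bases before the NGG, lay nearest to the guide's PKLR position were taken as the PKLR stretch. SG7 had none within 3 bp inside the window. The stretch lay 0 bp from the position for SG2 and SG4 and 1 bp for SG1, where 3, 2 and 3 such stretches lay within 3 bp for SG2, SG4 and SG1. The lines below are shown because they let the outside sites be set against that stretch. They are 5′ to 3′, GRCh38.p14 from RefSeq. Capitals mark the NGG in the PKLR lines and, in the others, the bases that differ from the PKLR stretch of the same guide or are extra.
PKLR, SG4 (chr1:155301486-155301508, plus strand): agaaaaggggcacacccagtAGG
LINC00945, SG4 (chr21:33057623-33057645, plus strand): TgGaaaggggcacaGccagtcgg
SSU72L6, SG4 (chr7:124476091-124476114, minus strand): aCaaaGgTggcaCcacccagtcgg
NTMT2, SG4 (chr1:170145933-170145956, minus strand): GgaGGaggggcaGcacAcagtggg
MYADML2, SG4 (chr17:81947406-81947428, plus strand): agGGTTggAgGacacccagtggg
PKLR, SG2 (chr1:155301500-155301522, minus strand): tggggacagggtggcctactGGG
VSIG8, SG2 (chr1:159862749-159862771, plus strand): GggTgacagggtggcctacCtgg
LOC107985814, SG2 (chr2:100653413-100653435, plus strand): AgAggacagggAAgcctGcttgg
PKLR, SG1 (chr1:155301417-155301439, plus strand): ctgcgggaccatggaatgagAGG
EEPD1, SG1 (chr7:36153048-36153069, minus strand): AGgcgggGccatggaagagggg
MIR205HG, SG1 (chr1:209428676-209428698, minus strand): ctgGgggaccatgAaTGgagagg

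In these windows lay 14 outside sites: 3 of SG1, 4 of SG2, 7 of SG4 and 0 of the other guides. A site's count is the whole number the authors deposited for it, with no normalization. The most counted was the SG4 site before LINC00945, a long non-coding RNA, with 448 counts or 9.63% of the SG4 count at PKLR. Its stretch differed from the PKLR stretch at 3 of 20 bases and ended in an NGG. The SG2 site before VSIG8, an immunoglobulin-domain membrane protein gene, had 130 counts (2.44% of PKLR) and also differed at 3 bases. Of 34787 distinct RefSeq start windows on these chromosomes, 1 (0.00287%) held a stretch within 3 mismatches with NGG for SG4, on either strand, and it was the LINC00945 window. For SG2 it was likewise 1 window (0.00287%), that of VSIG8. Within 4 mismatches, SG2 had 3 windows and SG4 had 2, and the other windows, of HPCAL4 and NDRG2 for SG2 and of LRRN2 for SG4, held no listed site. SG1 had 1 window within 4 mismatches, that of MIR205HG, and its listed site had 2 counts.

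Other sites in these windows matched less well base for base. The SG1 site 200 bp before EEPD1, which encodes a protein with a DNA endonuclease-like domain, had 413 counts (15.1% of PKLR) and differed at 6 bases. When 1 missing base was allowed, as in the line printed for it, 3 bases differed. Windows that match the SG1 stretch this well with 1 missing or extra base and an NGG were 9 of 34787 (0.0259%). The SG4 site before SSU72L6, with 35 counts, differed at 8 bases without a gap and at 3 with 1 extra base, a level reached by 6 windows (0.0172%). NTMT2 had 16 counts, 9 mismatches without a gap and 4 with 1 extra base, a level reached by 45 windows (0.129%). The MYADML2 site had 5 counts and 6 mismatches, of which 1 lay in the 10 bases next to the NGG. The S100A7 site (7 counts) had 8 mismatches with 1 in those 10 bases, and the CDA site (110 counts) had 8 with 2. The window shares given here count the best match anywhere in a window. A listed site was compared only where the expected cut lay within 3 bp of its position. The shares are therefore not how often such a match lies at a given break. Without a gap and with an NGG, 82 windows (0.236%) lay within 6 mismatches of the SG4 stretch and 2104 (6.05%) within 8. For mismatches in the 10 bases next to the NGG no such share was computed. SG2 differed at 5 bases in the LOC107985814 window, where it had 32 counts, a level reached by 23 windows (0.0661%). The SMAD5 site of SG1 (9 counts, 5 mismatches), the RGCC site of SG2 (3 counts, 8) and the NBPF1 site of SG4 (5 counts, 8) had no NGG at the best stretch. The PEA15 site of SG2 (32 counts) lies 3 bp from the end of its window, so only part of the surrounding sequence could be compared, and 14 bases differed. These matches are descriptions of letters and do not show that the guide paired there.

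**Figure D1:**
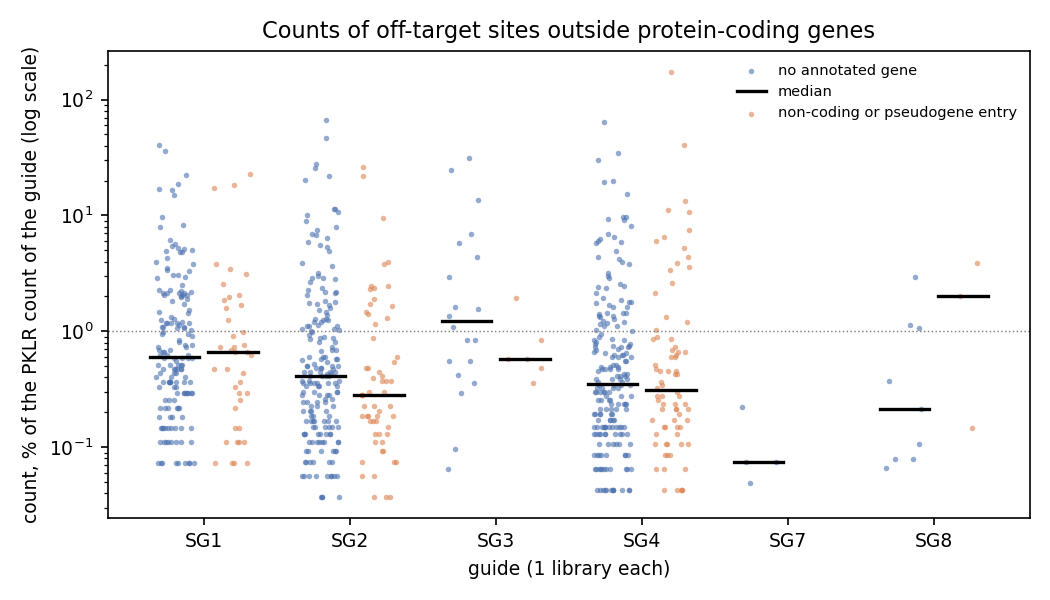
Each point is 1 outside site, with its count as a percentage of the PKLR count of the same guide on a log axis, divided by guide and by whether the site lies in a non-coding or pseudogene entry. Black lines are medians and the dotted line is 1%. Most sites of SG1, SG2 and SG4 lie under 1%, and 1 SG4 site in a pseudogene entry lies above 100%.

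Outside sites made up close to the same part of the lists of the 3 guides with many sites. They were 205 of 448 off-target sites for SG1 (45.8%, exact Clopper-Pearson 95% interval 41.1 to 50.5%, for counting error only), 248 of 533 for SG2 (46.5%, 42.2 to 50.9%) and 278 of 553 for SG4 (50.3%, 46.0 to 54.5%). The intervals of these guides overlapped, and all lay below 58.4%, the share of the annotated chromosome sequence that is outside protein-coding genes. Among the short lists, that of SG7 had 4 of 7 outside (57.1%, 18.4 to 90.1%), that of SG3 had 26 of 49 (53.1%, 38.3 to 67.5%) and that of SG8 had 12 of 28 (42.9%, 24.5 to 62.8%). These wider intervals include 58.4%. The sequence share counts every base from the first gene to the last, also bases where no read can be placed.

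In the lists as deposited, the outside sites of each guide held a smaller part of the off-target counts than of the sites. They took 42.0% of the off-target counts of SG1 (12618 counts), 39.1% of SG2 (27943), 30.3% of SG3 (3216), 43.8% of SG4 (32661), 34.7% of SG7 (17) and 32.6% of SG8 (909). Without the places listed for more than 1 guide, the direction turned for SG8 (74% of counts against 50% of sites) and SG1 (47% against 46%), and with 1 added to every position SG1 had 46.1% against 46%. Set against the PKLR count, the outside counts came to 4.63 times for SG1, 5.24 times for SG2, 1.04 times for SG3, 7.02 times for SG4, 0.00422 times for SG7 and 0.12 times for SG8. The counts were concentrated in few sites. The 5 most counted outside sites held 30.5% of the outside counts of SG1, 36.8% of SG2, 48.8% of SG4, 79.1% of SG3 and 91.2% of SG8. A typical site was weak, with a median of 17 counts for SG1 (95% interval 13 to 21), 20 for SG2 (16 to 24), 16 for SG4 (13 to 21), 22 for SG8 (6 to 151), 26 for SG3 (17 to 60) and 3 for SG7. The medians inside protein-coding genes were 15, 14, 15, 15, 40 and 3 in the same order.

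The level of 1% of PKLR was reached by 78 outside sites of SG1 (38.0%, 31.4 to 45.1%), where 32.8% of all off-target sites reached that level. The numbers were 73 for SG2 (29.4% of its outside sites against 26.6% of all), 72 for SG4 (25.9% against 28.9%), 12 for SG3 (46.2% against 51%), 5 for SG8 (41.7% against 32.1%) and 0 for SG7 (0% against 0%). Each background share lies within the interval of the outside sites, but that background includes the outside sites themselves. Inside protein-coding genes the share was 28.4% for SG1 (22.8 to 34.5%), below the interval of its outside sites. For SG4 the inside share was 32% (26.5 to 37.9%), above the interval of its outside sites (20.9 to 31.5%). In both guides the inside and outside intervals overlapped. For SG2 the inside share was 24.2%, within the outside interval (23.8 to 35.5%). The outside intervals of SG3, SG7 and SG8 are too wide to show closeness. The level of 10% of PKLR was reached by 12 outside sites of SG2, 11 of SG4, 10 of SG1 and 3 of SG3. Over all guides this was 36 of 773 (4.66%, 3.28 to 6.39%), against 52 of 845 sites inside protein-coding genes (6.15%, 4.63 to 7.99%). At the other end, 79 of the outside sites had only 2 or 3 counts (10.2%, 8.17 to 12.6%), against 73 of the inside sites (8.64%, 6.83 to 10.7%). At both levels the intervals overlapped.

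The most counted outside sites of SG4 were of mixed kind. First was position 237903006 on chromosome 1, in the transcribed pseudogene LOC100130331, with 8052 counts (173% of PKLR, 167 to 179%), 12084 bp from ZP4, an egg-coat protein gene. This 1 site held more counts than any other outside site of the series. Next came 2954 counts on chromosome 2 (131832137, no gene, 63.5%) and 1883 counts on chromosome 19 (19966059, 40.5%) in BNIP3P12, a pseudogene of the cell-death gene BNIP3. The fourth, with 1625 counts (34.9%), lay on chromosome 11 at 70267696, 2994 bp upstream of PPFIA1, which encodes a scaffold protein of the liprin family. The fifth, with 1409 counts (30.3%), lay at 69570747 on the same chromosome, 70409 bp from the edge of the cyclin D1 gene CCND1.

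SG2 had its most counted outside site on chromosome 15 at 40349348, with 3536 counts (66.3%, 63.5 to 69.2%), in a gap of 10093 bp between PHGR1 and CCDC9B. The next, with 2489 counts (46.7%), lay on chromosome 4 at 114424061, 174341 bp upstream of UGT8, an enzyme of myelin lipid synthesis. A site with 1492 counts (28.0%) lay on chromosome 21 at 36582825, 6256 bp upstream of the tight-junction gene CLDN14. Sites with 1391 counts (chromosome 7, 7323159, in the long non-coding RNA LOC107986764) and 1374 counts (chromosome 19, 31573492, 222615 bp upstream of the transcription factor gene TSHZ3) followed at 26.1% and 25.8% of PKLR.

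For SG1 the leading outside site had 1113 counts (40.8%, 38.0 to 43.8%) on chromosome 13 at 27361164, 63455 bp upstream of GTF3A, the transcription factor of the 5S ribosomal RNA genes. A site on chromosome 10 at 85060973 had 990 counts (36.3%) in a gap of 1081034 bp between protein-coding genes. Sites with 626 counts (chromosome 9, 102631), 615 counts (chromosome 1, 110495181, 22036 bp from the potassium channel gene KCNA10) and 507 counts (chromosome 9, 71624174, 59192 bp from CEMIP2) stood at 22.9%, 22.5% and 18.6%. The first of these is in the overlapping entries LINC01388 and LOC102724750.

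SG3 had 3 outside sites over 10% of PKLR: 976 counts on chromosome X (31.6%), 760 on chromosome 10 at 131707253 (24.6%) and 417 on chromosome 11 at 14369863 (13.5%). The next SG3 sites had 214 counts (chromosome 13, 58568385) and 177 counts (chromosome 12, 94954397). SG8 reached 291 counts on chromosome 11 at 19284971, in the antisense RNA CSRP3-AS1 (3.85%), then 222 at 14369864 (2.94%), 151 on chromosome 15 at 39180928 in LOC105370777 (2.00%), 85 on chromosome 6 at 115569171 (1.13%) and 80 on chromosome 11 at 45448404 (1.06%). The SG7 sites were 9 counts on chromosome X (137191043), 3 on chromosome 2 (59957835), 3 on chromosome 3 (93470669) and 2 on chromosome 5 (166739533). All 4 were in no annotated gene and between 157048 and 503227 bp from the nearest start. At most, an SG7 outside site had 0.223% of the PKLR count.

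Of the 773 outside sites, 186 lay in a non-coding or pseudogene entry (24.1%, 21.1 to 27.2%) and 587 in no annotated gene. Such entries cover 23.2% of the outside sequence, a value within the interval. Long non-coding RNA entries held 161 sites (20.8%, 18.0 to 23.9%, against 20.7% of the outside sequence) and pseudogene entries 29 (3.75%, 2.53 to 5.34%, against 2.45%). The latter interval leaves out the sequence share by a small margin, with 6 of its sites in 1 family described below. Shares in an entry were 20% for SG1, 24.2% for SG2, 27.3% for SG4, 23.1% for SG3, 25% for SG8 and 0% for SG7. By counts the guides were further apart: entries held 44.8% of the outside counts of SG4 and 49.8% of SG8, 20% of SG1, 18.3% of SG2, 4.6% of SG3 and 0% of SG7. The SG4 value includes the 8052 counts in LOC100130331.

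The 186 sites fell in 193 entries, some of which overlap. Names of 25 of the entries mark antisense RNAs and 5 mark divergent transcripts, which start near a protein-coding gene's start and run away from it. The most counted of these sites was 1171 counts of SG2 (21.9%) in CFAP20DC-DT on chromosome 3, followed by the 291 counts of SG8 in CSRP3-AS1 and by 211 counts of SG2 (3.96%) in TET2-AS1, beside the DNA demethylase gene TET2. Entries with sites of more than 1 guide numbered 6, at different positions in each. They were LOC107986478 (SG1, 467 counts at 172631218 of chromosome 5; SG4, 21 counts), SMAD3-DT (SG1, 70; SG2, 7), LOC105370003 (SG1, 43; SG4, 2), LINC02955 (SG3, 15; SG2, 3), LOC340512 (SG4, 4; SG1, 3) and PLEKHM1P1. Among 44 well-known non-coding genes, of which 41 were found in the table, 2 held an outside site. These 2 sites are 0.259% of the 773 (0.0313 to 0.931%), and the entries cover 0.202% of the outside sequence. MIAT, a long non-coding RNA of chromosome 22, had 14 counts of SG4 at 26652683, and MIR99AHG, a microRNA host gene of chromosome 21, had 10 counts of SG2 at 16172470.

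Pseudogenes and repeated genes gave groups of sites in copies of 1 sequence; these groups were chosen after their values were seen and are given as a description. The clearest is the UNC93B group of SG4. UNC93B1, which encodes a transport chaperone of the endosomal Toll-like receptors, has 7 pseudogene copies in the table, and SG4 was listed in 6 of them and in UNC93B1 itself. The counts were 279 in UNC93B2 (chromosome 7, 6857486, 5.99% of PKLR), 204 in UNC93B6 (chromosome 11, 71605605), 158 in UNC93B5 (chromosome 11, 67713681) and 146 in UNC93B1 (chromosome 11, 67993538). They were 28 in UNC93B3 (chromosome 3, 75621490), 16 in UNC93B7 (chromosome 4, 9496076) and 15 in UNC93B8 (chromosome 4, 8961970). In each copy the site lay between 2341 and 2454 bp from the lower coordinate of the entry. Strand was not known for these entries, so the lower coordinate need not be the same end of each copy. The pseudogene entries with a site are 4375 to 4815 bp long, so the site lay near their middle. UNC93B4, whose entry is 2223 bp long, had no listed site. The outside copies together had 700 counts.

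**Figure D2:**
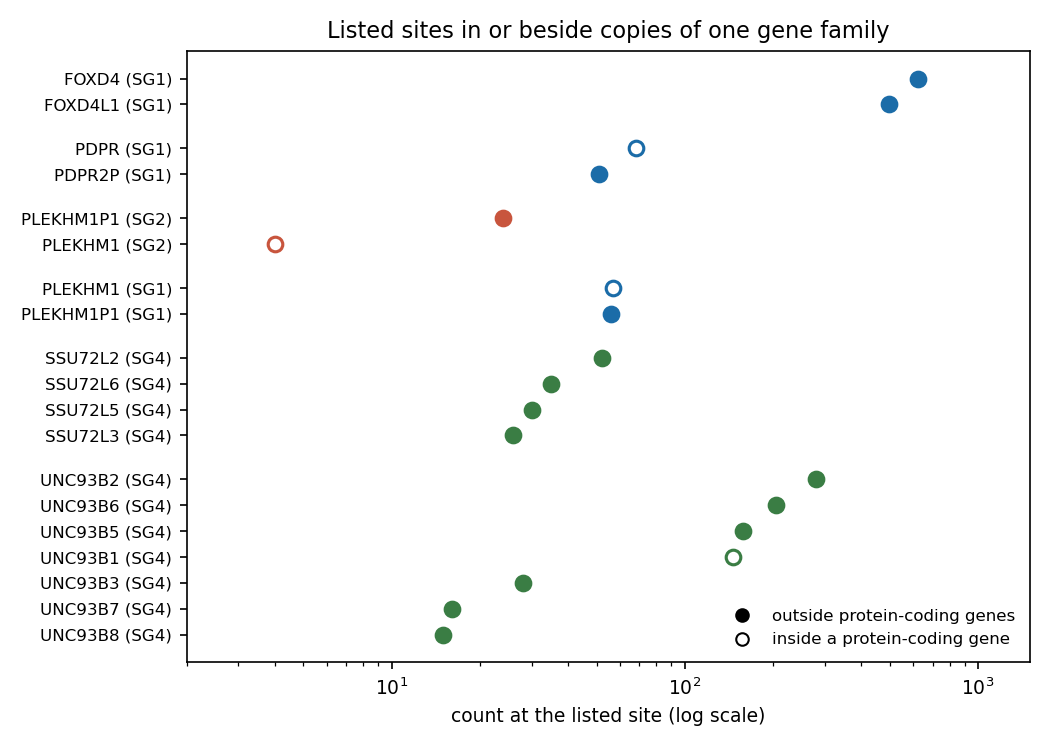
Each point is the count of 1 listed site, on a log axis, in or beside a member of a family of copied genes, with the guide in the row label and in the colour. Filled points are outside protein-coding genes and open points inside. In the UNC93B family the counts run from 15 to 279, and the PLEKHM1 pair of SG1 has 57 and 56.

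Sites in other copied genes had fewer members. SG1 had 57 counts in PLEKHM1, a lysosome-fusion adapter gene, and 56 in its pseudogene PLEKHM1P1, at 18135 and 17944 bp from the upper coordinate of each. SG2 had its own pair there, 4 counts in PLEKHM1 and 24 in PLEKHM1P1, at 35524 and 35338 bp. SG1 also had 68 counts in PDPR, a regulator of pyruvate dehydrogenase phosphatase, and 51 in PDPR2P, and 6 in DTX2 against 19 in DTX2P1. Upstream of SSU72-like genes, SG4 had 52 counts (SSU72L2), 35 (SSU72L6), 30 (SSU72L5) and 26 (SSU72L3), at 930, 221, 926 and 923 bp from the start, and no listed site at SSU72L1 and SSU72L4. The SG1 sites of 626 and 496 counts lie 15786 and 14993 bp downstream of the starts of FOXD4 and FOXD4L1, 2 forkhead genes of the same family, and an SG1 site of 8 counts lies 26059 bp downstream of that of FOXD4L6. Of the 29 outside sites in a pseudogene entry, 18 had a parent gene by name and 10 had a site of the same guide in that parent. Of these 10, the 6 in UNC93B entries all refer to the same site in UNC93B1. How often a parent gene holds a listed site of a given guide was not computed, so these numbers have no background. Because the assignment of reads that fit several copies is not stated, counts of single copies are uncertain.

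Outside sites of SG1, SG2 and SG4 lay closer to the starts of protein-coding genes than the outside sequence as a whole. The distance is from the site to the nearest start among the 15811 of 19970 protein-coding genes whose strand was known, and 737 sites have one, since none was known on chromosome 8. The median distance was 73348 bp for SG1 (55531 to 101846 bp), 73259 bp for SG2 (54880 to 95442 bp) and 96964 bp for SG4 (79147 to 117102 bp), against 196998 bp over the outside sequence. It was 134852 bp for SG3 (43540 to 234959 bp), whose interval includes the sequence value, and 97742 bp for SG8 (14536 to 531554 bp), whose interval does too. The 4 sites of SG7 had a median of 360740 bp (range 157048 to 503227 bp), above that of the sequence. The intervals of SG1, SG2 and SG4 overlapped each other. To the nearest edge of a protein-coding gene, the medians of SG1, SG2 and SG4 were 34205, 30546 and 47779 bp. Over the outside sequence that median was 122398 bp. Within 10 kb of an edge lay 23.8% of all outside sites (20.8 to 27%), against 12.6% of the outside sequence. The nearness was thus not particular to starts. These sequence values also count bases where no read can be placed.

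**Figure D3:**
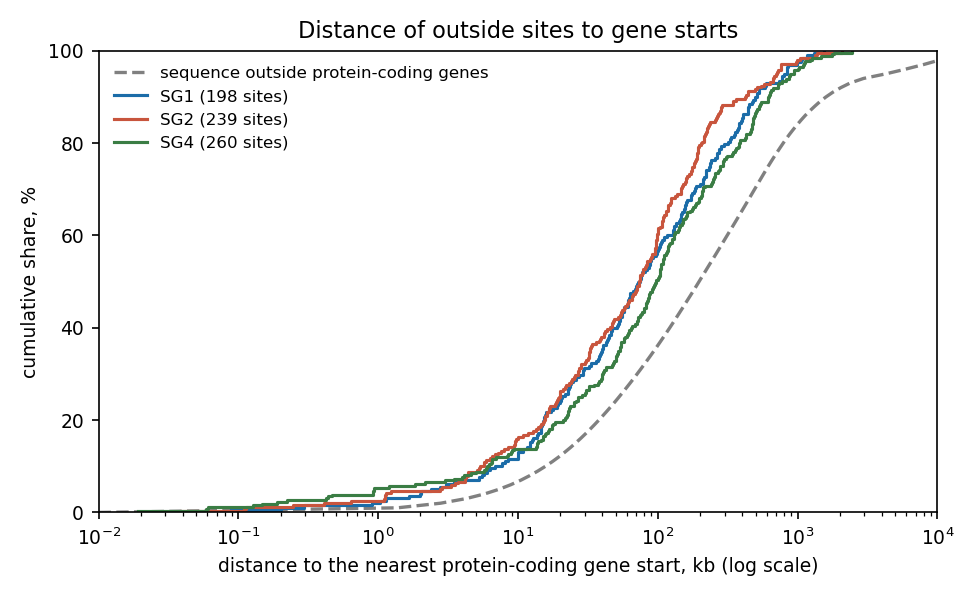
Cumulative share of outside sites by distance to the nearest protein-coding gene start, on a log axis in kb, for SG1, SG2 and SG4, with the same curve for all outside sequence (dashed). The 3 curves of sites lie left of the dashed curve, with medians between 73259 and 96964 bp against 196998 bp.

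Over all guides, 24 sites lay within 1 kb of a start (3.26%, 2.1 to 4.81%, against 0.733% of the outside sequence) and 78 from 1 to 10 kb (10.6%, 8.46 to 13%, against 5.97%). From 10 to 100 kb there were 303 (41.1%, 37.5 to 44.8%, against 29.5%) and from 100 kb to 1 Mb 308 (41.8%, 38.2 to 45.4%, against 47.9%). Only 24 lay over 1 Mb away (3.26%, 2.1 to 4.81%, against 15.9%). Thus, over all guides, each band up to 100 kb held more sites than its share of sequence and each band beyond it fewer. Taken singly, SG1, SG2 and SG4 went the same way, but some intervals included the sequence share. These were SG1 within 1 kb (0.553 to 5.09%), SG4 from 1 to 10 kb (5.38 to 12.5%) and both from 100 kb to 1 Mb. The outside sequence also counts bases where no read can be placed, and its distances reach 20541237 bp. The farthest site lay at 2463993 bp. Within 10 kb lay 12.1% of the outside sites of SG1 (7.92 to 17.5%), 15.9% of SG2 (11.5 to 21.2%) and 13.8% of SG4 (9.89 to 18.7%), against 6.7% of the sequence, and 3 of 25 sites of SG3, 1 of 11 of SG8 and 0 of 4 of SG7. With genes widened by 2000 bp on each side, the shares fell to 7.34% (3.97 to 12.2%), 9.86% (6.21 to 14.7%) and 7.66% (4.6 to 11.8%), against 4.94% of the sequence that then remains, and the intervals of SG1 and SG4 include that value. Of the 24 sites within 1 kb, 14 were of SG4, 6 of SG2 and 4 of SG1.

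Upstream of the nearest start lay 451 of 737 sites (61.2%, 57.6 to 64.7%), an interval that includes the 59% of the outside sequence. Gaps of over 1 Mb between protein-coding genes hold 40.9% of the outside sequence but had 159 of the 773 sites (20.6%, 17.8 to 23.6%). That sequence share also counts bases where no read can be placed. The share in such gaps was 14.9% for SG2, 20% for SG1 and 24.1% for SG4. SG7 had 75% there (3 of 4 sites, 19.4 to 99.4%), SG8 had 33.3% (9.92 to 65.1%) and SG3 had 26.9% (11.6 to 47.8%), whose intervals include the sequence share. Nearness to a start did not differ between strong and weak sites beyond these intervals. Within 10 kb were 10.5% of SG1 sites at 1% of PKLR or more and 13.1% of those under it, 15.1% and 16.3% for SG2, and 15.9% and 13.1% for SG4, with overlapping intervals in each guide.

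The nearest sites to a start were all just upstream, as they must be, since the first bases after it are inside the gene. They were 19 bp before NTMT2, an N-terminal methyltransferase gene (SG4, 16 counts), 39 bp before BATF2, a leucine-zipper factor gene (SG2, 15 counts), 59 bp before FSTL4 (SG4, 67 counts), 61 bp before CDA, the cytidine deaminase gene (SG4, 110 counts) and 89 bp before SMAD5, a signal transducer of bone morphogenetic proteins (SG1, 9 counts). The BATF2 and FSTL4 sites lie before the outermost start of the gene, and the RefSeq windows of these genes are placed at another start. Of the 24 sites within 1 kb, the EEPD1 site with 413 counts was the most counted. The farthest sites lay on chromosome 20 at 28793671 (2463993 bp, SG4, 5 counts), on chromosome 4 at 33035592 (2315223 bp, SG3, 9 counts), on chromosome 2 at 82385776 (2073504 bp, SG2, 20 counts), and on chromosome 4 at 179637266 (1810347 bp) and 58743470 (1764574 bp), both of SG4 with 4 and 8 counts. None of these 5 reached 1% of PKLR.

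Genes of red cells, blood formation and glycolysis were nearest to few outside sites, too few to show closeness to their share of the sequence. Of a list of 59 such genes, all found in the table and 44 with a known start, 2 were nearest to an outside site, and these are 0.271% of the 737 sites (0.0329 to 0.977%) against 0.243% of the outside sequence. Both were SG4 sites with few counts. One had 11 counts on chromosome 2 at 126770664, 114506 bp downstream of the start of GYPC, the glycophorin C gene. The other had 8 counts on chromosome 21 at 35520401, in the entry LOC100506403. It lay 471099 bp upstream of the start of RUNX1, a transcription factor gene of blood stem cells. List genes without a known start could not be nearest here, and the list was not counted by gene edge. By edge, an SG2 site of 94 counts (1.76% of PKLR) on chromosome 9 at 132999010 lay 5576 bp from GFI1B, also on the list. Its nearest known start was that of GTF3C5, at 31698 bp.

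SG1, SG2 and SG4 each had outside sites on all 23 chromosomes, SG3 on 14, SG8 on 8 and SG7 on 4. Over all guides there were 4.37 outside sites per 10 Mb of outside sequence, bases where no read can be placed included. Density was highest on chromosome 17 with 9.22 per 10 Mb, followed by chromosome 11 with 7.17 and chromosome 19 with 7.06, and lowest on chromosome 13 with 2.35 and chromosome 4 with 2.5. The exact interval of a chromosome's share of sites left out its share of outside sequence on 5 of 23 chromosomes. Chromosome 17 had 36 sites (4.66%, 3.28 to 6.39%, against 2.21%) and chromosome 11 had 52 (6.73%, 5.06 to 8.73%, against 4.1%). Below their share were chromosome 4 with 30 sites (3.88%, 2.63 to 5.49%, against 6.79%), chromosome 13 with 19 (2.46%, 1.49 to 3.81%, against 4.58%) and chromosome X with 31 (4.01%, 2.74 to 5.64%, against 5.94%). These are pooled numbers, in which a place listed for several guides counts once per guide. Taken singly, SG1, SG2 and SG4 did not all differ on any of these chromosomes. Their own intervals left out the sequence share for SG1 and SG2 on chromosomes 17 and 13. They did so for SG4 alone on chromosomes 11 and 4 and for SG2 alone on X. Among the other chromosomes, SG1 (4.91 to 12.9%) and SG2 (5 to 12.2%) left out the 4.9% of chromosome 9. SG4 (8.62 to 16.7%) left out the 7.73% of chromosome 1, and SG1 (0.797 to 5.6%) the 5.64% of chromosome 6. Counts followed single sites more than chromosomes: chromosome 1 held 28.6% of the outside counts of SG4, mainly the 8052 counts in LOC100130331, and chromosome 11 held 65.2% of those of SG8.

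Outside places listed for more than 1 guide numbered 8, of which 1 was in 3 lists, and they made up 17 listed sites. SG3 and SG8, whose PKLR positions are 1 bp apart, shared 4: 417 and 222 counts at chromosome 11, 14369863, which is 5357 bp upstream of the small GTPase gene RRAS2; 760 and 28 at chromosome 10, 131707253; 91 and 85 at chromosome 6, 115569171; and 50 and 5 at chromosome 9, 119383969, near BRINP1. At the other places 1 guide had most of the counts. Chromosome 15, 40349348, had 3536 counts of SG2 and 10 of SG1, and chromosome 11, 69570746, had 1409 of SG4 (at 69570747), 6 of SG2 and 4 of SG1. Chromosome 5, 41722589, had 80 counts of SG1 and 2 of SG3, and a place on chromosome 8 had 268 of SG4 and 2 of SG2.

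Some listed sites lay beside a stronger one of the same list. SG2 had 8 counts 578 bp from the CLDN14 site of 1492 counts, and 2 counts 51 bp from a site of 204 counts in LOC105373024 on chromosome 22. SG4 had 2 counts 488 bp from the PPFIA1 site of 1625 counts. Near PODXL on chromosome 7, SG4 had 230 and 63 counts 1292 bp apart and 2 counts 16 bp from the latter. Each was kept as a site of its own in the numbers above.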

How the data were processed

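Members, gene lists and naming rule were chosen with earlier results of these data known. Each library is 1 deposited list of sites with a whole-number count, not normalized, in a column whose name, per the file headers, is one that GUIDE-seq callers use for a total of both strands. Reads and consolidated molecules cannot be told apart in it. The ratio that the authors deposited for each site was not used. Percentages of PKLR were recomputed from the counts, with the most counted listed site inside PKLR as 100%. DNA was fragmented, amplified and read as paired reads of 150 bases, per the labels' protocols. The build is hg38, per the submitters' processing notes, but no aligner, filter or site caller is named in the sources used here. Whether positions count from 0 or 1 is not stated.

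Genes came from the RefSeq table of GRCh38, patch release 14. It holds no exons, so exons, introns and UTRs are not distinguished. Strand came from the RefSeq start windows and was missing for 4159 of 19970 protein-coding genes. Sequence shares were taken every 100 bp from each chromosome's first annotated gene to its last. Bases where no read can be placed were not left out. Listed sites were compared on both strands with the expected cut within 3 bp of the listed position. For the shares of all windows, every position of a window was searched on both strands. The 3 bp rule was applied there only afterwards, to tell whether a match without a gap lay at a listed site.

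With 1 library per guide, no comparison between guides has a test or a replicate. Shares have exact Clopper-Pearson 95% intervals and medians order-statistic intervals (the range under 6 values). Amplified reads are not independent molecules and sites are not independent, so the intervals cover counting error only. A list's total count, lowest for SG7 (4079) and highest for SG4 (79227), is not its depth. Named are the 5 most counted outside sites of each guide (all of SG7), places listed for more than 1 guide, the 5 nearest to and 5 farthest from a start, sites in or nearest to list genes, and entries with sites of more than 1 guide. Other named sites, and the start-window and copy comparisons, were chosen after their values were seen. For 1 named site the surroundings are not reported here. Alternatives were a wider gene edge, other distance targets, a minimum count, merged sites, leaving out shared places, lncRNA and pseudogene entries only, and positions shifted by 1. The code was tested on simulated data. Scripts ran in Python 3.11.15 with scipy 1.17.1, pandas 2.3.3, numpy 2.4.6 and, for the plots, matplotlib 3.10.9.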

Additional observations from a re-analysis of the deposited data

Results flagged for a closer look

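Besides chromosomes 1 to 22 and X, which the comparisons use, there were 2 listed sites. SG2 had 16 counts on the mitochondrial genome at position 11224 (0.3% of PKLR), and 59 counts of SG4 stood on the unplaced sequence KI270438v1 at position 12417 (1.27%). Both drew attention because they lie in data that no comparison above uses. Neither has a control value beside it, since untreated cells were not analysed here.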

How the results depend on the processing

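Of 264 recomputed values, 236 stayed within their interval or within 1.5 times the main number and 28 moved. With protein-coding genes widened by 2000 bp on each side, the share of sites outside fell to 40.8% (SG1), 41.5% (SG2) and 45.8% (SG4), that of counts to 38.1%, 31.7% and 41.6%, and the share within 10 kb of a start to 7.34%, 9.86% and 7.66%, where 4.94% of the remaining sequence lies as close (6.7% before widening), so that the intervals of SG1 and SG4 no longer exceed the sequence share. Without places listed for more than 1 guide, the share of counts was 47.0% for SG1, 47.9% for SG4 and 74.0% for SG8, 3 SG8 sites reached 1% of PKLR, and 0% lay within 10 kb; counts then exceeded sites in share for SG1 and SG8. With 1 added to each position, the SG1 share of counts was 46.1%, because a site at the outermost base of ETHE1 then falls outside. To the start of any annotated gene, the median distance was 35604 bp (SG1), 28143 bp (SG2) and 34786 bp (SG4). To the nearest edge it was 34205, 30546 and 47779 bp, against 122398 bp over the outside sequence. With at least 10 counts, the median was 32 for SG1, SG2 and SG4, SG4 had 182 outside sites, and SG7 had 0, with 0% of sites and of counts. Merging neighbouring sites moved none of the values. Using lncRNA and pseudogene entries alone could move none, because every entry with an outside site was of these kinds. Sites that are not listed have no upper limit here, since lists start at 2 or 3 counts. Each guide has 1 library, so none could be left out. No paired analysis was possible because the labels give no replicate numbers.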
